A study of Mus musculus with 15 samples.

Results

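The genes described here are 10 members of the vascular endothelial growth factor (VEGF), angiopoietin and TIE pathway in mouse liver endothelial cells. They are 3 ligands (Vegfc, Pgf and Angpt2), 3 VEGF receptors (Kdr, Flt1 and Flt4), the co-receptors Nrp1 and Nrp2, and the receptors Tek and Tie1. They were chosen by name, and their probes were found through the transcript accessions on the array. This gave 12 of 55681 probes, for 10 of 21173 genes with a symbol. Kdr and Nrp2 had 2 probes each and the other genes had 1.

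Gene expression was measured in 15 RNA samples of sorted liver endothelial cells, with 3 samples in each of 5 groups. EC-SP and EC-MP came from animals of 8 weeks, and the labels' SP and MP are read here as side population (cells that export a dye) and main population. CD157+CD200+, CD157-CD200+ and CD157-CD200- endothelial cells were sorted by these surface proteins from adult liver. The study looked for markers of endothelial stem cells. No genotype, strain or treatment is labelled for any group. The design text calls the samples independent without saying whether each came from its own animal, and the p-values therefore cover no more than the variation among these samples, part of which may be technical. The arrays are bulk measurements, in which fewer cells of a type and less RNA per cell cannot be told apart.

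VEGF ligands act through receptor tyrosine kinases on the endothelial surface. VEGFR2, encoded by Kdr, carries most of the growth and permeability signal. VEGFR1, encoded by Flt1, binds ligand tightly and signals weakly, and VEGFR3, encoded by Flt4, is the receptor for VEGF-C and is known for its part in lymphatic growth. Neuropilins bind both VEGFs and semaphorins and act as co-receptors. Angiopoietins bind TIE2, encoded by Tek, where angiopoietin-1 activates and angiopoietin-2 acts as a partial agonist or antagonist depending on context. In the liver, sinusoidal endothelial cells line the exchange capillaries and are known to express VEGFR2 and VEGFR3.

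RefSeq's promoter table (build GRCm38.p6, 250 bases before to 50 after each annotated start) held 10 promoters of 9 of the members. Those of Vegfc, Flt4, Kdr and Tek are shown 5′ to 3′ because Vegfc and Flt4 moved in opposite directions between the groups, Kdr followed Flt4 in the CD157 and CD200 subsets, and Tek did not pass the test there. Capitals mark matches, on either strand, to the SP/KLF-type, ETS-type and GATA-type motifs spelled out after the sequences. The Vegfc promoter lies at chr8:54077282-54077581 on the plus strand, the Flt4 promoter at chr11:49609429-49609728 on the plus strand, the Kdr promoter at chr5:75978406-75978705 on the minus strand and the Tek promoter at chr4:94739039-94739338 on the plus strand.
Vegfc: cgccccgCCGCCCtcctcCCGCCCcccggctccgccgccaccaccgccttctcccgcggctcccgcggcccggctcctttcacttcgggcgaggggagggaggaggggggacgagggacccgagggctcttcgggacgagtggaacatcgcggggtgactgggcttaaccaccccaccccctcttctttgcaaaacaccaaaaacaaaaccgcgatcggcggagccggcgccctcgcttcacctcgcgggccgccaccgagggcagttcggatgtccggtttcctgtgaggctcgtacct
Flt4: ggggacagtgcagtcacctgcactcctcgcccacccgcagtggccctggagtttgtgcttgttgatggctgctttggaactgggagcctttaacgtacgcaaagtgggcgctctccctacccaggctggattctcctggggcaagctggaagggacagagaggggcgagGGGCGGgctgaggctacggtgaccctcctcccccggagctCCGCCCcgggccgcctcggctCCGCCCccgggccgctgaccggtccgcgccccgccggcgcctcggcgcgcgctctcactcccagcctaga
Kdr: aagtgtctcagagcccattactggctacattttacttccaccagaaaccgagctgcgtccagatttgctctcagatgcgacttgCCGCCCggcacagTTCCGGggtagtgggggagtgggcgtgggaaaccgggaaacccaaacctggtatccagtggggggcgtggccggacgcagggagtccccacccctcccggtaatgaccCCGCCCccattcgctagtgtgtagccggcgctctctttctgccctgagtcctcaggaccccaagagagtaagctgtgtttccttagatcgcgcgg
Tek: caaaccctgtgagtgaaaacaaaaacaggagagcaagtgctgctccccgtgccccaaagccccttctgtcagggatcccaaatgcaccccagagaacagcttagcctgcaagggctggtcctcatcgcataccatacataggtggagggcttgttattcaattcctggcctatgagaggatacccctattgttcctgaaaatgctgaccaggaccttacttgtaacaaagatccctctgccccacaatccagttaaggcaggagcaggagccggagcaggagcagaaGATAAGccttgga

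A match to GGGCGG, a motif of the SP and KLF factors, stood in a promoter of 7 of the 9 members (Flt1, Flt4, Kdr, Nrp1, Nrp2, Pgf and Vegfc) and in neither TIE receptor's window. Pgf had a further promoter in the table without a match. Of all 32851 promoters in the table, 35.7% held it. The shares over all promoters count promoters, whereas the members are counted as genes. The ETS-type motif CCGGAA matched in Kdr alone of the 9 members, and in 14.9% of all promoters. The GATA-type motif, spelled GATAAG, matched in Tek alone of the 9, and in 7.44% of all promoters. The forkhead-type motif TGTTTAC had no match in these windows, against 3.65% of all promoters. The AP-1-type motif, spelled TGACTCA, had none either, against 5.20% of all promoters. None of the motifs overlaps another in these 10 windows, except that 2 GGGCGG matches in Nrp2 share bases. The guanine and cytosine content was 70.3% for Vegfc and for Flt4, 60.7% for Kdr and 52.0% for Tek, against a median of 52.7% over all promoters.

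Values are log2 signal minus the log2 75th percentile of the same array, so 0 marks the 75th percentile and 1 unit is a doubling. Levels are compared between groups for 1 probe and not between probes, except where the brightest of a set of markers is named. All 12 probes were well above background on all 15 arrays. The 2 sorts were scanned on different instruments, so EC-SP was set only against EC-MP and the subsets only against each other, in fits with limma on 6 and 9 arrays. Each slide held 1 array of every group of its sort, and slide, scan and replicate number coincide. Genes with a p below 0.05 after Benjamini-Hochberg adjustment over all tested features count as called. The image software put 57.3% to 69.4% of an array's spots well above background, and an array's 75th percentile was 157 to 297 intensity units. Endothelial marker genes had summed signals of 138 to 259 times the 75th percentile over the 15 arrays, and all 7 were above background in every group. A sum of this kind is set mostly by its brightest probes, so it can hide changes of dimmer markers. Bst1, which encodes CD157, differed by 4.34 in EC-SP minus EC-MP and by 5.73 in CD157+CD200+ minus CD157-CD200-. Cd200 differed by 3.39 in EC-SP minus EC-MP and its signal in CD157+CD200+ was above that in CD157-CD200- at least 320.0-fold. Of the 7 endothelial genes, Emcn was called higher (0.81, adjusted p = 0.030) and Eng lower (-1.45, adjusted p = 0.0037) in EC-SP minus EC-MP. Pecam1 differed by 0.80 (adjusted p = 0.077, or 0.025 with the slide as a block and 0.049 without EC-MP replicate 3) and Cdh5 by 0.10 (adjusted p = 0.84) there. In CD157+CD200+ minus CD157-CD200-, Pecam1 was the 1 endothelial gene called (1.09, adjusted p = 0.0015), and Cdh5 differed by -0.16 (adjusted p = 0.75).

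In EC-SP the ligand genes Vegfc and Pgf rose, whereas Angpt2, the receptor genes Flt4 and Tek and the co-receptor gene Nrp1 fell relative to EC-MP. These 6 of 10 members passed the test, while 16.6% of the 23971 features tested were called in that comparison (9.11% higher and 7.44% lower). The calls of Pgf, Tek and Nrp1 were each lost in 5 of the 6 fits that left out 1 array. In CD157+CD200+ minus CD157-CD200-, 6 of 10 passed (2 higher, 4 lower) where 15.2% of 23701 features did (8.09% higher and 7.11% lower). In CD157-CD200+ minus CD157-CD200-, 6 of 10 also passed (2 higher, 4 lower) where 11.8% of features did (6.31% higher and 5.54% lower). Between CD157+CD200+ and CD157-CD200+ the limma fit called 0 of 10, where 1.05% of features were called, and 1 member (Nrp1) had an unadjusted p under 0.05. The members were chosen with earlier results known, and the subset comparisons share samples, so these counts describe the genes and are not independent of each other. The median log2 difference of the members was 0.14, -0.37, -0.23 and 0.00 in the 4 comparisons in this order, and that of all features lay between -0.01 and 0.02.

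**Figure D1:**
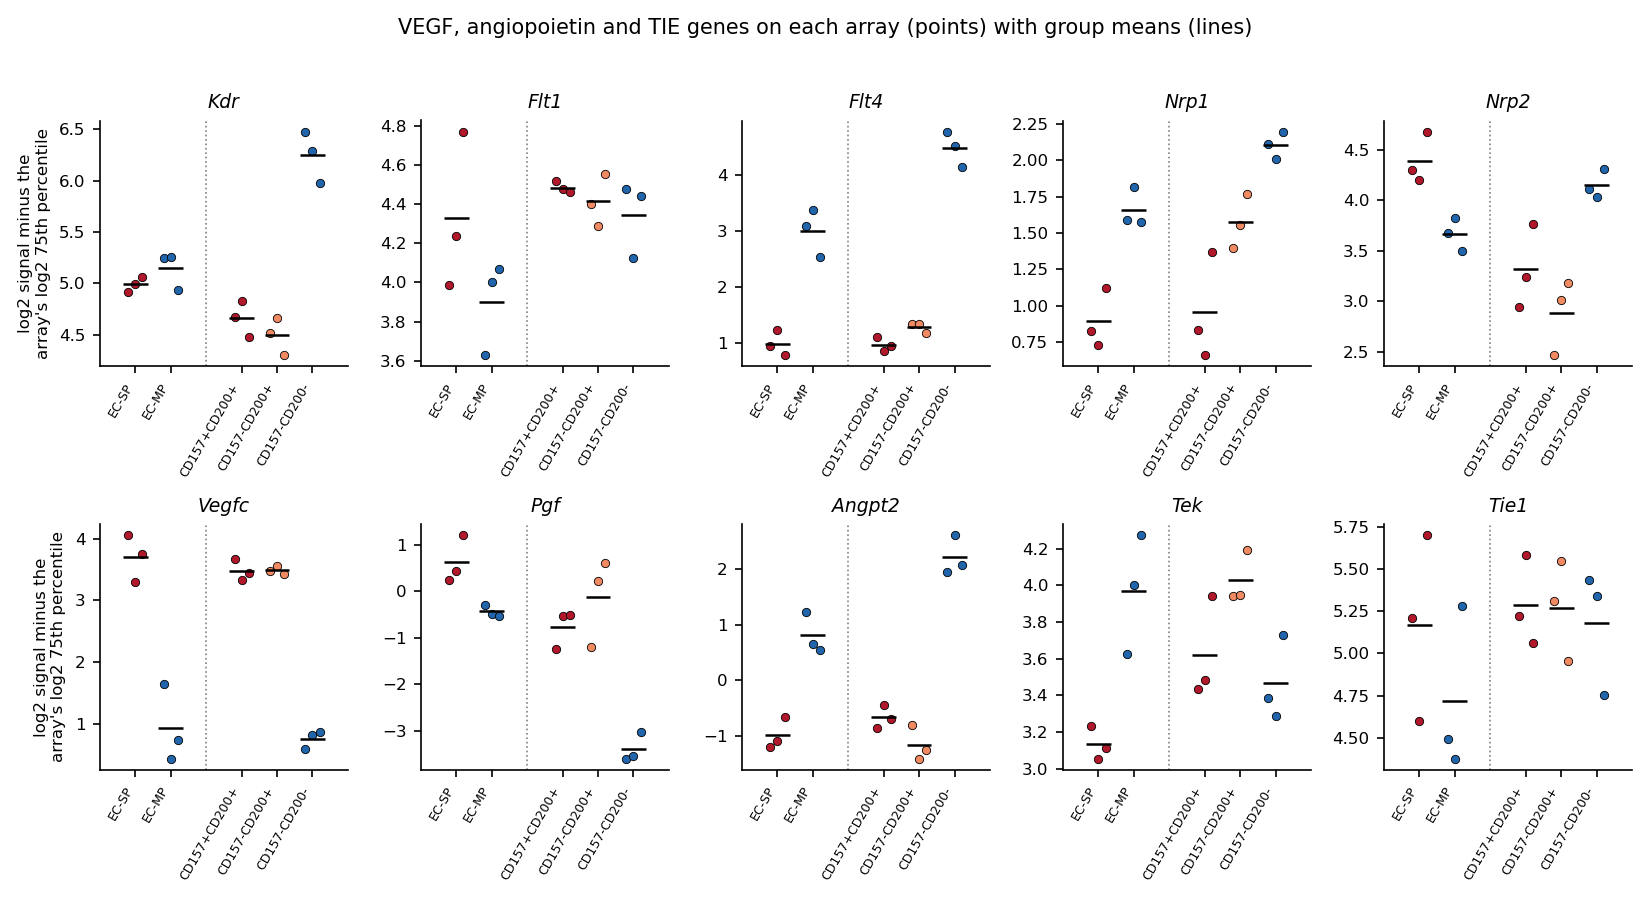
Signal of the probe that stands for each gene on each of the 15 arrays (vertical axis: log2 signal minus the array's log2 75th percentile), with 3 points per group and a line at the group mean; the dotted line separates the sorts, which were scanned on different instruments. Vegfc and Pgf sit higher in EC-SP than in EC-MP and higher in both CD200+ subsets than in CD157-CD200-, while Flt4 and Angpt2 sit lower and Tie1 overlaps in every comparison.

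Vegfc encodes VEGF-C, the ligand of VEGFR3 and, once processed, of VEGFR2. Its level was 4.06, 3.30 and 3.75 in EC-SP replicates 1 to 3, against 1.64, 0.44 and 0.74 in EC-MP. Every EC-SP array was above every EC-MP array, and the 6.80-fold difference came to 2.76 ± 0.35 on the log2 scale (± is the SE throughout, with 3 arrays per group; adjusted p = 0.00097). In the subsets it was 3.67, 3.33 and 3.44 in CD157+CD200+, 3.48, 3.55 and 3.43 in CD157-CD200+, and 0.59, 0.82 and 0.86 in CD157-CD200-. Both CD200+ groups lay above CD157-CD200- without overlap, by 2.72 ± 0.17 (adjusted p = 4.6e-06) for CD157+CD200+ and 2.73 ± 0.17 (adjusted p = 6.0e-06) for CD157-CD200+. The CD157+CD200+ and CD157-CD200+ arrays overlapped, with a difference of -0.01 and a 95% interval from -0.39 to 0.37. The order of the means was thus both CD200+ groups, which did not differ beyond their spread, and then CD157-CD200-.

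Pgf encodes placental growth factor, a ligand of VEGFR1 and of neuropilins. It measured 0.24, 0.45 and 1.21 in EC-SP and -0.28, -0.48 and -0.53 in EC-MP. These groups did not overlap, and the difference of 1.06 ± 0.28 passed the test (adjusted p = 0.034), with within-slide differences of 0.53, 0.93 and 1.74. This call was lost when any 1 array other than EC-SP replicate 1 was left out (adjusted p of 0.065 to 0.091). In the subsets Pgf was -1.24, -0.53 and -0.50 in CD157+CD200+, -1.20, 0.24 and 0.60 in CD157-CD200+, and -3.60, -3.53 and -3.03 in CD157-CD200-. Replicate 1 was the lowest of its group in both CD200+ subsets, and no array of these subsets reached down to the CD157-CD200- arrays. The differences from CD157-CD200- were 2.63 ± 0.43 for CD157+CD200+ (adjusted p = 0.0024) and 3.27 ± 0.43 for CD157-CD200+ (adjusted p = 0.00080). With normexp background correction, which compresses dim probes through its offset of 50, they shrank to 1.13 and 1.54, both still called. The 2 CD200+ groups overlapped, with a difference of -0.63 for CD157+CD200+ minus CD157-CD200+ (95% interval -1.61 to 0.34).

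Angpt2 encodes angiopoietin-2, a secreted ligand of TIE2. It measured -1.21, -1.10 and -0.66 in EC-SP, against 1.22, 0.65 and 0.54 in EC-MP. All EC-SP arrays were below all EC-MP arrays, by -1.80 ± 0.27 (adjusted p = 0.0024), or 3.47-fold lower. In the subsets Angpt2 was -0.86, -0.45 and -0.70 in CD157+CD200+, -0.81, -1.41 and -1.25 in CD157-CD200+, and 1.95, 2.61 and 2.08 in CD157-CD200-. It was 7.38-fold lower in CD157+CD200+ (-2.88 ± 0.24, adjusted p = 3.0e-05) and 10.4-fold lower in CD157-CD200+ (-3.37 ± 0.24, adjusted p = 1.5e-05) than in CD157-CD200-, without overlap. The 2 CD200+ groups overlapped slightly, and their difference of 0.49 did not pass (95% interval -0.05 to 1.03, adjusted p = 0.66).

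Flt4 encodes VEGFR3, a receptor of VEGF-C, and fell in the 3 comparisons in which Vegfc rose. Its level was 0.95, 1.25 and 0.79 in EC-SP, against 3.10, 3.37 and 2.53 in EC-MP. The groups did not overlap, and the difference was -2.005 ± 0.27 (adjusted p = 0.0015), or 4.01-fold lower. In the subsets it was 1.11, 0.87 and 0.95 in CD157+CD200+, 1.34, 1.35 and 1.18 in CD157-CD200+, and 4.77, 4.51 and 4.14 in CD157-CD200-. Flt4 was 11.3-fold lower in CD157+CD200+ (-3.50 ± 0.20, adjusted p = 2.4e-06) and 9.11-fold lower in CD157-CD200+ (-3.19 ± 0.20, adjusted p = 5.7e-06) than in CD157-CD200-. The CD157+CD200+ arrays were all below the CD157-CD200+ arrays, by -0.31, which did not pass the test (95% interval -0.75 to 0.13, adjusted p = 0.83).

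Flt4 is also a gene of lymphatic endothelium and of sinusoids. The 4 lymphatic markers measured summed to 0.68 to 1.12 times the 75th percentile in EC-SP, where Pdpn and Reln were not above background, against 5.64 to 10.9 in EC-MP. Mmrn1 was the brightest of them in EC-MP (2.84, against -2.14 in EC-SP). Of the 4, 3 were called lower in EC-SP, where 7.44% of all features were. Pdpn and Reln, among these 3, were tested only because they were above background in EC-MP. A call of either could therefore hardly have gone the other way, and Mmrn1 was the call with signal in both groups. Prox1 was not called (-0.03, adjusted p = 0.97). In the subsets the 4 markers summed to 0.45 to 0.55 in CD157+CD200+, 0.43 to 0.63 in CD157-CD200+ and 0.62 to 0.98 in CD157-CD200-, where Reln was not above background. Neither Pdpn nor Reln was above background in either CD200+ group. Of the 2 markers tested, Mmrn1 was called lower in CD157+CD200+ than in CD157-CD200- (-2.16, adjusted p = 0.020), where 7.11% of all features were. Prox1 was not called there (0.25, adjusted p = 0.63). Against CD157-CD200-, 0 of 2 were called in CD157-CD200+. The 8 sinusoidal markers, all above background in every group, summed to 10.6 to 14.3 in EC-SP and 255 to 476 in EC-MP. They summed to 62.3 to 82.0 in CD157+CD200+, 124 to 153 in CD157-CD200+ and 784 to 1058 in CD157-CD200-. Gata4 (5.11) and Clec4g (4.96) were the brightest of them in CD157+CD200+. All 8 were called lower in CD157+CD200+ than in CD157-CD200-, where 7.11% of all features were. Their differences ran from -0.87 for Gata4 to -7.43 for Dnase1l3. The part of these cell types in the differences of Flt4 and the other members was not tested. Some markers of other cell types were called as well.

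For the counts that follow, 16.6% of all features were called in EC-SP minus EC-MP. The shares were 15.2% in CD157+CD200+ and 11.8% in CD157-CD200+, each against CD157-CD200-. Of the 7 cholangiocyte markers, 6 were called higher in EC-SP, with sums of 9.47 to 12.4 in EC-SP and 1.88 to 2.69 in EC-MP, where Cdh1 was not above background. In the antibody sort none of the 6 tested was called, with sums of 4.37 to 6.63 in CD157+CD200+, 1.93 to 3.53 in CD157-CD200+ and 2.80 to 3.99 in CD157-CD200-. The 8 hepatocyte markers went both ways in EC-SP, with 3 calls up and 2 down (sums of 7.51 to 9.46, against 5.66 to 6.36 in EC-MP). Against CD157-CD200-, 7 were lower in CD157+CD200+ and 8 in CD157-CD200+, with sums of 9.58 to 12.1 and 7.86 to 10.1 in these groups and 23.7 to 40.7 in CD157-CD200-. Of the Kupffer cell and leukocyte markers, 3 of 8 tested (Clec4f, Vsig4 and Cd5l) were called lower in both CD200+ groups, while the sums overlapped, at 23.8 to 27.0 in CD157+CD200+, 22.7 to 31.7 in CD157-CD200+ and 26.9 to 32.8 in CD157-CD200-. Sums follow the brightest markers, so the overlap does not mean that Kupffer cell markers were unchanged. In EC-SP and EC-MP the brightest of the list was Csf1r (4.69 and 4.55). Stellate and fibroblast markers were called both ways, with 2 higher and 3 lower of 7 tested in CD157+CD200+, 1 higher and 3 lower in CD157-CD200+, and 0 higher and 2 lower of 6 tested in EC-SP. Their sums were 1.16 to 1.82 in EC-SP and 1.38 to 3.03 in EC-MP, and 3.10 to 5.16 in CD157+CD200+, 2.17 to 3.66 in CD157-CD200+ and 3.44 to 4.51 in CD157-CD200-. Of the 5 smooth muscle markers, 1 was higher in EC-SP, 1 in CD157+CD200+ and 2 in CD157-CD200+, with sums of 6.75 to 9.74 in EC-SP against 5.68 to 5.90 in EC-MP, and of 9.65 to 10.05 in CD157+CD200+ and 10.6 to 15.7 in CD157-CD200+ against 5.06 to 7.76 in CD157-CD200-. The part of these cell types in the results was not tested.

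Kdr encodes VEGFR2, the main signalling receptor for VEGF-A. The probe that stands for the gene (A_55_P2094469) measured 4.91, 4.99 and 5.06 in EC-SP, against 5.25, 5.26 and 4.93 in EC-MP. These groups overlapped, and the difference of -0.16 did not pass the test (95% interval -0.64 to 0.33, adjusted p = 0.70). In the subsets it was 4.67, 4.83 and 4.48 in CD157+CD200+, 4.52, 4.66 and 4.30 in CD157-CD200+, and 6.48, 6.29 and 5.98 in CD157-CD200-. Kdr was lower than in CD157-CD200- by -1.59 ± 0.20 in CD157+CD200+ (adjusted p = 0.00040) and by -1.75 ± 0.20 in CD157-CD200+ (adjusted p = 0.00027), or 3.01-fold and 3.37-fold lower. The 2 CD200+ groups overlapped, with a difference of 0.16 (95% interval -0.28 to 0.60). The other Kdr probe (A_51_P316553) had 10 spots on each array, against 1 spot for the first. It measured 3.83, 3.83 and 4.17 in EC-SP and 4.61, 5.07 and 4.17 in EC-MP. Here EC-SP replicate 3 and EC-MP replicate 3 met, and the difference of -0.67 did not pass either (adjusted p = 0.14, with every probe as a feature). In the subsets this probe gave -1.86 for CD157+CD200+ and -1.99 for CD157-CD200+ against CD157-CD200-, both called. Whether the Kdr difference of the antibody sort differs from that of the dye sort was not tested.

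Flt1 encodes VEGFR1, a receptor of VEGF-A and placental growth factor. Its level was 3.98, 4.24 and 4.77 in EC-SP, against 3.63, 4.003 and 4.07 in EC-MP. EC-SP replicate 3 was the highest, the groups overlapped, and the difference of 0.43 did not pass (95% interval -0.18 to 1.04, adjusted p = 0.33). In the subsets Flt1 was 4.52, 4.47 and 4.46 in CD157+CD200+, 4.40, 4.29 and 4.56 in CD157-CD200+, and 4.47, 4.12 and 4.44 in CD157-CD200-. All 3 groups overlapped. The differences from CD157-CD200- were 0.14 for CD157+CD200+ (95% interval -0.24 to 0.52) and 0.07 for CD157-CD200+ (95% interval -0.31 to 0.45).

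Nrp1 encodes neuropilin-1, a co-receptor of VEGFR2 and a semaphorin receptor. It measured 0.83, 0.73 and 1.12 in EC-SP, against 1.59, 1.81 and 1.58 in EC-MP. The groups did not overlap, and the difference of -0.76 ± 0.22 passed narrowly (adjusted p = 0.044). The call was lost when any 1 array other than EC-SP replicate 3 was left out (adjusted p of 0.079 to 0.13). In the subsets Nrp1 was 0.84, 0.66 and 1.37 in CD157+CD200+, 1.40, 1.56 and 1.77 in CD157-CD200+, and 2.11, 2.01 and 2.20 in CD157-CD200-. The 3 groups stood in this order without overlap. Against CD157-CD200-, the difference was -1.15 ± 0.21 in CD157+CD200+ (adjusted p = 0.0050) and -0.53 ± 0.21 in CD157-CD200+ (adjusted p = 0.17). With the slide as a block, CD157-CD200+ minus CD157-CD200- passed as well (adjusted p = 0.037), with within-slide differences of -0.72, -0.45 and -0.43. CD157+CD200+ minus CD157-CD200+ gave -0.62 (95% interval -1.10 to -0.14), with an adjusted p of 0.37, or 0.077 with the slide as a block.

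Nrp2 encodes neuropilin-2, a co-receptor of VEGFR3 that binds VEGF-C, and its probes gave opposite signs in EC-SP. The probe that stands for the gene (A_65_P15245) measured 4.30, 4.20 and 4.68 in EC-SP, against 3.68, 3.82 and 3.50 in EC-MP. Its EC-SP arrays were all higher, by 0.73 ± 0.23, and did not pass the test (adjusted p = 0.062), although it did under normexp (adjusted p = 0.012) and with all 15 arrays in the fit (adjusted p = 0.049). The other probe (A_52_P93910), designed on another Nrp2 transcript, measured 3.00, 2.86 and 3.51 in EC-SP, against 3.53, 3.77 and 3.50 in EC-MP. It overlapped only through EC-SP replicate 3 and differed by -0.48 ± 0.25 (adjusted p = 0.24). The array gives no single direction for Nrp2 in that comparison. Which transcripts each probe reads was not tested.

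In the subsets both Nrp2 probes were lower in the CD200+ groups. The first probe measured 2.94, 3.24 and 3.76 in CD157+CD200+, 2.46, 3.01 and 3.18 in CD157-CD200+, and 4.12, 4.04 and 4.32 in CD157-CD200-. Neither CD200+ group reached the CD157-CD200- arrays. The difference was -1.27 ± 0.26 for CD157-CD200+ (adjusted p = 0.010) and -0.84 ± 0.26 for CD157+CD200+ (adjusted p = 0.059), the second of which passed with the slide as a block (adjusted p = 0.0085) and without CD157+CD200+ replicate 3 (adjusted p = 0.026). The other probe gave -0.87 (adjusted p = 0.029) for CD157-CD200+ and -1.04 (adjusted p = 0.010) for CD157+CD200+. Between CD157+CD200+ and CD157-CD200+ the probes differed in sign, at 0.43 and -0.17, and neither passed.

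**Figure D2:**
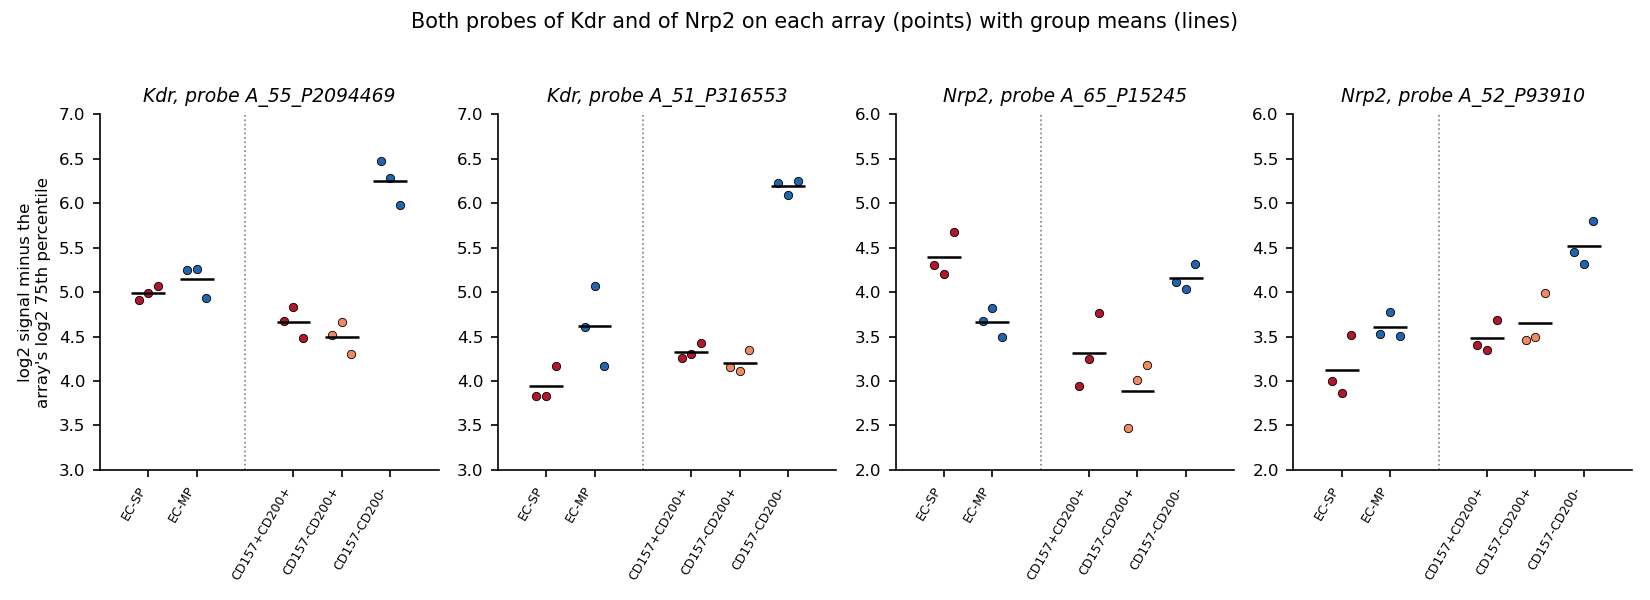
Both probes of Kdr and of Nrp2 on each array (vertical axis: log2 signal minus the array's log2 75th percentile; points: arrays; lines: group means; the dotted line separates the sorts). Both Kdr probes sit highest in CD157-CD200-, at means of 6.25 and 6.19, whereas the Nrp2 probes place EC-SP above EC-MP with one probe (0.73) and below it with the other (-0.48).

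Tek encodes TIE2, the angiopoietin receptor. It measured 3.23, 3.05 and 3.11 in EC-SP, against 3.63, 4.001 and 4.27 in EC-MP. The groups did not overlap, and the difference of -0.83 ± 0.24 passed narrowly (adjusted p = 0.043). The call was lost when any 1 array other than EC-MP replicate 1 was left out (adjusted p of 0.082 to 0.12). In the subsets Tek was 3.44, 3.48 and 3.94 in CD157+CD200+, 3.94, 3.95 and 4.19 in CD157-CD200+, and 3.38, 3.29 and 3.73 in CD157-CD200-. The CD157-CD200+ arrays were the highest and lay above both other groups, narrowly so for CD157+CD200+. CD157-CD200+ minus CD157-CD200- was 0.56 ± 0.20 (adjusted p = 0.13), and with the slide as a block it passed (adjusted p = 0.0087), with within-slide differences of 0.56, 0.66 and 0.47. CD157+CD200+ minus CD157-CD200- was 0.15 (95% interval -0.31 to 0.61, adjusted p = 0.74), with overlapping groups.

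Tie1 encodes the orphan receptor of the TIE pair, which modulates TIE2. It measured 5.21, 4.60 and 5.70 in EC-SP, against 4.49, 4.38 and 5.28 in EC-MP. Replicate 3 was the highest in both groups, which overlapped, and the difference of 0.45 did not pass (95% interval -0.33 to 1.24, adjusted p = 0.44). In the subsets Tie1 was 5.22, 5.58 and 5.06 in CD157+CD200+, 5.31, 5.55 and 4.96 in CD157-CD200+, and 5.44, 5.34 and 4.76 in CD157-CD200-. The groups overlapped and replicate 3 was the lowest in each. The differences from CD157-CD200- were 0.11 (95% interval -0.45 to 0.67) for CD157+CD200+ and 0.09 (95% interval -0.47 to 0.65) for CD157-CD200+.

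Differences of any kind among the 3 subsets were tested with the moderated F test of limma. It called 7 of the 10 members, where 13.9% of features were called. These were Flt4 (adjusted p = 3.5e-06), Vegfc (adjusted p = 5.1e-06), Angpt2 (adjusted p = 2.0e-05), Kdr (adjusted p = 0.00032), Pgf (adjusted p = 0.0013), Nrp1 (adjusted p = 0.014) and Nrp2 (adjusted p = 0.021). Tek (adjusted p = 0.22), Flt1 (adjusted p = 0.93) and Tie1 (adjusted p = 0.99) did not pass. With the slide as a block, 8 members were called, where 26.8% of all features were.

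**Figure D3:**
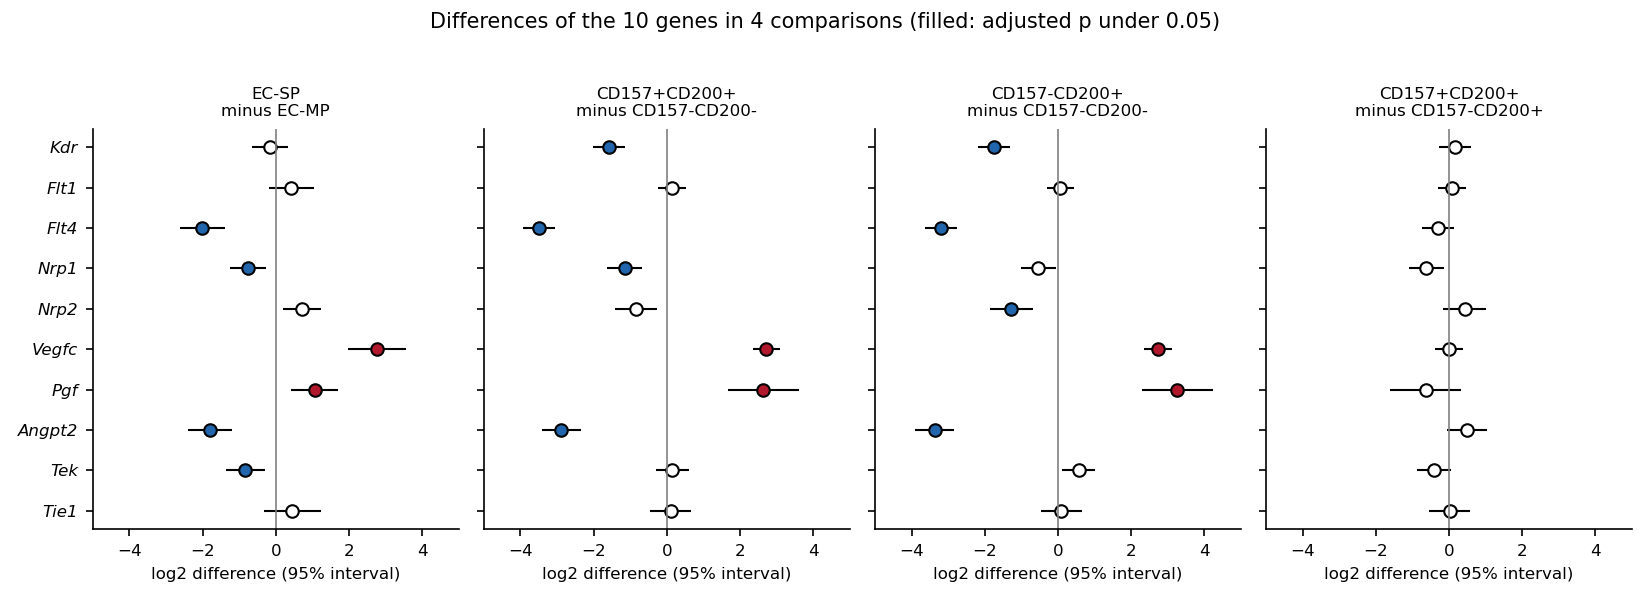
Log2 differences of the 10 genes in the 4 comparisons (points) with their 95% intervals (lines) from limma; filled points had an adjusted p under 0.05, red for higher and blue for lower in the first-named group. Vegfc and Pgf lie right of 0 and Flt4 and Angpt2 left of 0 in the first 3 panels, whereas Kdr is filled only in the 2 comparisons with CD157-CD200-, and no point is filled in CD157+CD200+ minus CD157-CD200+.

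The Nrp1, Pgf and Tek calls in EC-SP were those that changed most with the setting. The members called there were 3 or 4 when any 1 array was left out, 3 without the filter on dim probes, and 4 with the array median in place of the 75th percentile. The split of 2 higher and 4 lower became 2 and 2 with the median, 1 and 4 with the authors' series table and 3 and 4 under normexp. Vegfc, Flt4 and Angpt2 kept their calls in all of these fits. In the comparisons of the CD200+ groups with CD157-CD200-, 6 to 8 members were called under every alternative.

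Other ligands and their processing factors were tested for 5 of 9 listed genes. In EC-SP, 2 were called higher and 1 lower than in EC-MP, where 9.11% of all features were higher and 7.44% lower (median -0.50, against -0.01 over all features). Angpt1, the activating ligand of TIE2, was higher in EC-SP, at least 3.32-fold (adjusted p = 0.00042), since it was not well above background on any EC-MP array. Vegfa, the main VEGFR2 ligand, differed by 1.06 ± 0.29 (adjusted p = 0.036) with its brightest probe and by -0.18 with another, so its probes gave no single direction. Its call was also lost without EC-MP replicate 1 or 2 or EC-SP replicate 2 or 3 (adjusted p of 0.072 to 0.10). Of the 3 calls of the list in EC-SP, 1 was left without EC-MP replicate 1, EC-SP replicate 2 or EC-MP replicate 2. Vegfb, a VEGFR1 ligand, was lower in EC-SP (-0.98 ± 0.22, adjusted p = 0.015), a call lost without EC-MP replicate 1, EC-SP replicate 2 or EC-MP replicate 2 (adjusted p of 0.053 to 0.062) and without the filter on dim probes (adjusted p = 0.053). It was also lower than in CD157-CD200- in CD157+CD200+ (-1.47, adjusted p = 0.0027) and CD157-CD200+ (-1.29, adjusted p = 0.0070). In both of those comparisons 1 gene of the list was higher and 1 lower, where 8.09% and 7.11% of all features were higher and lower in CD157+CD200+ and 6.31% and 5.54% in CD157-CD200+. With the slide as a block, 4 were called in each (2 higher and 2 lower in CD157+CD200+, 3 higher and 1 lower in CD157-CD200+), where 29.3% and 22.3% of all features were called. Angpt1 was among them, at 1.05 in CD157+CD200+ (adjusted p = 0.010 with the block, 0.17 without) and 0.89 in CD157-CD200+ (0.023 with the block, 0.30 without). The higher one was Vegfd, a further VEGFR3 ligand, by at least 1.52-fold and 1.66-fold, not well above background on any CD157-CD200- array and no longer called under normexp (adjusted p = 0.070 and 0.0901). Svep1, a matrix protein that binds angiopoietins, had the lowest p of the list between CD157+CD200+ and CD157-CD200+ (-0.49, adjusted p = 0.60).

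Receptor partners and regulators, with all 20 listed genes tested, went both ways. In EC-SP 5 were higher and 6 lower than in EC-MP (median -0.13), in CD157+CD200+ 3 were higher and 5 lower than in CD157-CD200- (median 0.05), and in CD157-CD200+ 4 were higher and 4 lower (median -0.05). Over all features the shares called were 16.6%, 15.2% and 11.8%. The list holds 5 class 3 semaphorins, ligands of neuropilin and plexin receptors, of which 2 were higher (Sema3g and Sema3c) and 2 lower (Sema3a and Sema3d) in EC-SP, while Sema3f was not called (-0.58, adjusted p = 0.22). Sema3g averaged 1.03 in EC-SP and -2.11 in EC-MP, a difference of 3.15 ± 0.23 (adjusted p = 8.2e-05). It was also higher in CD157+CD200+ (2.89, adjusted p = 0.00040) and CD157-CD200+ (4.13, adjusted p = 5.3e-05) than in CD157-CD200-, where it was well above background on 1 of the 3 arrays. Sema3a (-3.09, adjusted p = 0.00020) and Sema3d (-3.85, adjusted p = 0.00027) were lower in EC-SP than in EC-MP, and were well above background on 1 and 2 of the 3 EC-SP arrays. Both had the other sign in the antibody sort. Sema3d was higher in CD157-CD200+ than in CD157-CD200- by 2.36 ± 0.32 (adjusted p = 0.00092) and in CD157+CD200+ by 1.18 (adjusted p = 0.035). Sema3a exceeded its CD157-CD200- level by 1.17 in CD157-CD200+ (adjusted p = 0.027) and differed from it by 0.69 in CD157+CD200+ (adjusted p = 0.16). Itga9, an integrin subunit that associates with VEGFR3, was lower in CD157+CD200+ (-2.45, adjusted p = 0.00017) and CD157-CD200+ (-2.85, adjusted p = 8.3e-05). Clec14a, an endothelial lectin, differed by -1.11 in CD157+CD200+ (adjusted p = 0.0011), while another of its probes gave -0.46 and did not pass (adjusted p = 0.34). Between CD157+CD200+ and CD157-CD200+ limma called 0 of 20, with 5 at an unadjusted p under 0.05 and Sema3d at the lowest (-1.18, adjusted p = 0.18, or 0.011 with the slide as a block, where 2 of the 20 were called).

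**Figure D4:**
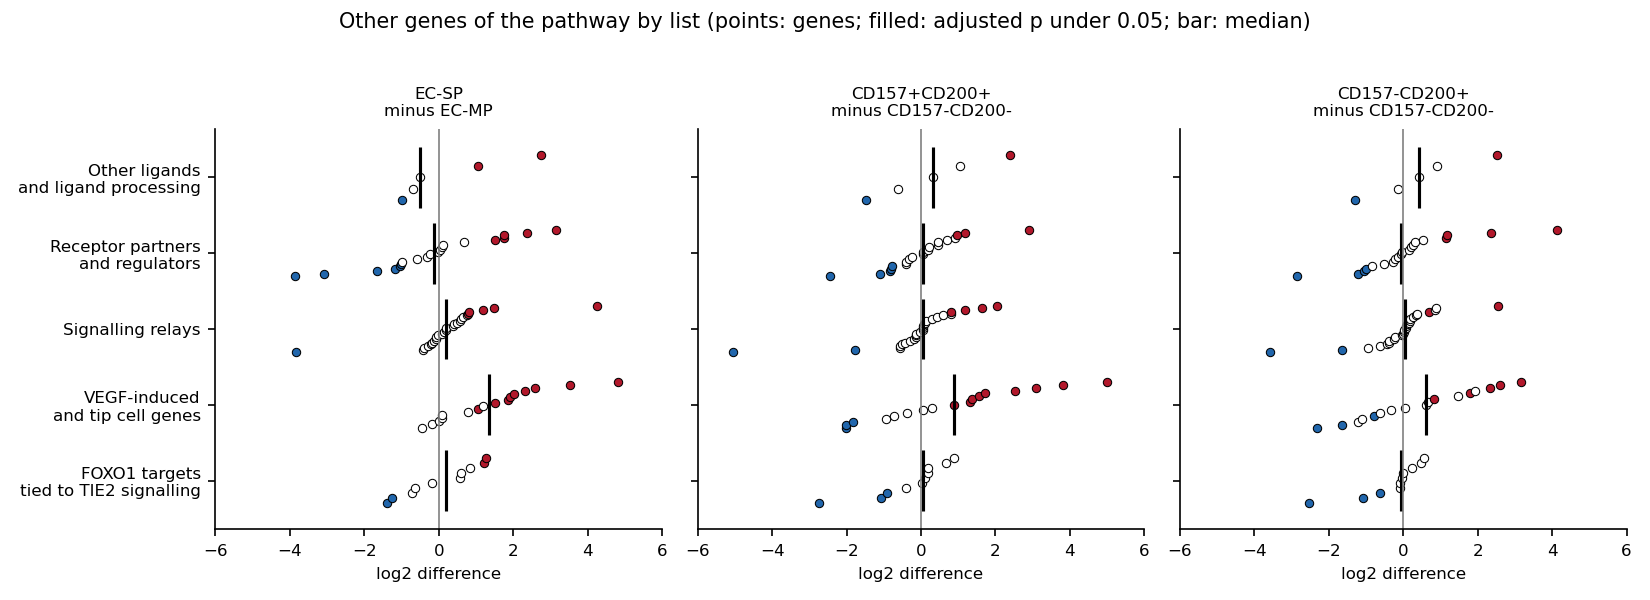
Log2 differences of the other pathway genes by list in 3 comparisons (points: genes; filled: adjusted p under 0.05, red for higher and blue for lower in the first-named group; black bars: list medians). The VEGF-induced and tip cell genes have medians of 1.35, 0.90 and 0.62, and the medians of the other 4 lists lie between -0.50 and 0.43.

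Of the signalling relays downstream of the receptors, 26 of 27 listed genes were tested and most did not pass. In EC-SP 5 were higher and 1 lower (median 0.19), in CD157+CD200+ 4 were higher and 2 lower (median 0.05), and in CD157-CD200+ 2 were higher and 2 lower (median 0.04), each against its CD157-CD200- or EC-MP group. The shares called over all features were 16.6%, 15.2% and 11.8%. Grb14, an adaptor that binds TIE2, was higher in EC-SP than in EC-MP, at least 8.24-fold (adjusted p = 0.00024). No EC-MP array had it well above background, so it entered that test through EC-SP alone. Prkcb, a protein kinase C, fell in EC-SP relative to EC-MP, at least 5.62-fold (adjusted p = 0.00083), and in CD157+CD200+ relative to CD157-CD200-, at least 13.6-fold (adjusted p = 5.7e-05). No EC-SP or CD157+CD200+ array had Prkcb well above background, so it entered these tests through the higher group alone. These p-values of Grb14 and Prkcb therefore rest on a lower group at background. It was also lower in CD157-CD200+ than in CD157-CD200- (-3.59, adjusted p = 0.00068), and was well above background on 2 of the 3 CD157-CD200+ arrays. Shb, an adaptor of VEGFR2, differed by 1.48 in EC-SP (adjusted p = 0.0042), and another of its probes by 0.49 (adjusted p = 0.27). Fyn, a kinase of the Src family, was lower in CD157+CD200+ (-1.76, adjusted p = 0.00075) and CD157-CD200+ (-1.66, adjusted p = 0.0013). Prkcd, another protein kinase C, was higher in CD157-CD200+ than in CD157-CD200- (2.54 ± 0.55, adjusted p = 0.014), a call lost without CD157-CD200+ replicate 3 (adjusted p = 0.053). With the slide as a block, 11 and 10 relays were called in the 2 comparisons with CD157-CD200-, against 6 and 4 without it, while the block raised the share called over all features to 29.3% and 22.3%. Without CD157-CD200+ replicate 3, 2 relays were called in CD157-CD200+ minus CD157-CD200-. Grb14 was the 1 relay called in CD157+CD200+ minus CD157-CD200+ (1.03, adjusted p = 0.048). It was not called there whichever array was left out (adjusted p of 0.064 to 0.19).

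Genes known to be induced by VEGF or to mark tip cells had the highest medians of the 5 lists. In EC-SP, 9 of 16 tested were higher and 0 lower (median 1.35), where 9.11% of all features were higher and 7.44% lower. In CD157+CD200+ 9 of 17 were higher and 3 lower (median 0.90), and in CD157-CD200+ 5 were higher and 3 lower (median 0.62) than in CD157-CD200-, where 15.2% and 11.8% of all features were called. Cd34, a surface sialomucin, averaged 5.05 in EC-SP and 1.52 in EC-MP, a difference of 3.52 ± 0.28 (adjusted p = 0.00011). It also differed by 3.82 in CD157+CD200+ and 2.59 in CD157-CD200+ from CD157-CD200- (adjusted p = 9.1e-07 and 1.4e-05). Cxcr4, a chemokine receptor, was higher in EC-SP by 4.82 ± 0.46 (adjusted p = 0.00025). It was also higher than in CD157-CD200- by 2.54 in CD157+CD200+ (adjusted p = 0.00018) and by 2.33 in CD157-CD200+ (adjusted p = 0.00039). Aplnr, the apelin receptor, exceeded its CD157-CD200- level by 5.003 ± 0.33 in CD157+CD200+ (adjusted p = 7.3e-06) and by 3.16 in CD157-CD200+ (adjusted p = 0.00018). Members of the list that fell in CD157+CD200+ were Adm, Esm1 and Hlx (-1.82, -2.004 and -2.02), so the list did not move one way. With the slide as a block, 13 of the list were called in CD157-CD200+ (8 higher, 5 lower), where 22.3% of all features were, against 8 of the list without the block and 5 without CD157-CD200+ replicate 1.

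In CD157+CD200+ minus CD157-CD200+, where no member of the axis was called, 3 genes of this list and 0.802% of all features were higher. Cd34 differed by 1.23 ± 0.18 (adjusted p = 0.012), Rcan1, a calcineurin inhibitor, by 1.65 ± 0.25 (adjusted p = 0.014) and Aplnr by 1.85 ± 0.33 (adjusted p = 0.034). Rcan1 was also higher in EC-SP than in EC-MP (2.31 ± 0.26, adjusted p = 0.00063). Between the CD200+ groups the Cd34 call was lost without CD157+CD200+ replicate 1 or CD157-CD200+ replicate 2 (adjusted p of 0.062 to 0.066). The Aplnr call was lost without any 1 CD157+CD200+ or CD157-CD200+ array (adjusted p of 0.053 to 0.14), and the Rcan1 call without any CD157+CD200+ array or CD157-CD200+ replicate 1 or 3 (adjusted p of 0.051 to 0.075). Leaving out 1 array there gave 0 to 4 calls of the list, and the slide block gave 5, with 3.07% of all features called.

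Targets of FOXO1, the transcription factor that TIE2 signalling restrains through AKT, numbered 10, all tested. In EC-SP 2 were higher and 2 lower than in EC-MP (median 0.19), and with the slide as a block 4 were higher and 3 lower, where 16.6% of all features were called without the block and 21.9% with it. Cited2, a transcriptional co-regulator, and Bcl6, a repressor, were higher in EC-SP (1.27 and 1.21, adjusted p = 0.0044 and 0.0042). Txnip, a thioredoxin inhibitor, was lower (-1.39 ± 0.33, adjusted p = 0.022), a call lost without EC-MP replicate 1, EC-SP replicate 2, EC-MP replicate 2 or EC-SP replicate 3 (adjusted p of 0.056 to 0.071). Without any 1 of these 4 arrays, 2 of the list were called, both higher. In both comparisons with CD157-CD200-, 0 were higher and 3 lower (Pdk4, Sesn1 and Txnip). Of all features, 8.09% were higher and 7.11% lower in CD157+CD200+, and 6.31% higher and 5.54% lower in CD157-CD200+. With the slide as a block, 2 were higher as well in CD157+CD200+ (Cited2 at 0.68, adjusted p = 0.0063, and Klf4 at 0.88, adjusted p = 0.011), where 29.3% of all features were called. Pdk4, a kinase that restrains pyruvate oxidation, differed by -2.74 ± 0.22 in CD157+CD200+ (adjusted p = 2.4e-05) and -2.54 ± 0.22 in CD157-CD200+ (adjusted p = 5.5e-05). Sesn1, a stress-response gene, differed by -0.90 (adjusted p = 0.0056) and -1.08 (adjusted p = 0.0023), and Txnip by -1.07 (adjusted p = 0.0011) and -0.63 (adjusted p = 0.028). The last of these was lost without any 1 CD157-CD200+ or CD157-CD200- array (adjusted p of 0.058 to 0.12). Between the CD200+ groups limma called 0 of 10, with 1 (Txnip, -0.45, adjusted p = 0.38) at an unadjusted p under 0.05.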

How the data were processed

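Agilent Feature Extraction made the scanner files (version 10.10.1.1 for EC-SP and EC-MP, 11.5.1.1 for the subsets, per the file headers). The deposited files hold linear Cy3 intensity, background-subtracted by that software, and the authors' series table holds that intensity times 1 constant per array (5.46 to 10.1), uncentred. Here, control and outlier-marked spots were left out, log2 of the processed signal minus the array's log2 75th percentile was taken, and spots of a probe were averaged. Tested probes were those well above background on every array of some group in the fit, and the probe with the highest mean signal stood for each gene. Fits used limma 3.58.1 in R 4.3.3 (two-sided, n = 3 per group), with Python 3.11.15, pandas 2.3.3 and numpy 2.4.6 for reading. In simulated data with 100 features changed by 1 unit and 100 by 2, EC-SP minus EC-MP recovered 0% and 59% of them. CD157+CD200+ minus CD157-CD200- recovered 31% and 77%. Fewer features were changed in the simulation than were called in the real data, so these shares do not give the power of the real fits. Genes that did not pass are not shown to be equal between groups. The 2 sorts were fitted apart, on 6 and 9 arrays. Lower bounds ("at least") are against the higher of the dim probe's own signal and the lowest signal well above background on each array. Normexp used median spot and background signals with an offset of 50.

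The members, lists and tests were chosen with earlier results of these data known. Counts of called genes per list were added to the alternatives after seeing the data. The genes named besides the members were Bst1, Cd200, Pecam1 and Cdh5, per comparison and list, the 3 called genes at most whose adjusted p was lowest (or the gene of lowest p where none was called), and up to 3 symbols with the pattern most like each member's (those of Nrp1 are not reported here). Adm, Esm1, Hlx, Eng, Emcn, Klf4, Sema3c, Sema3f, the Kupffer cell markers, the Sema3a, Sema3d, Mmrn1 and Prox1 values of the antibody sort and the Angpt1 and Cited2 values with the block were given after values were seen. After removal of group means, same-numbered arrays correlated at r of 0.27 to 0.33 in EC-SP and EC-MP and 0.27 to 0.63 in the subsets. Each number is 1 slide and scan per the file headers, so slide and replicate number are the same block.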

Additional observations from a re-analysis of the deposited data

How the results depend on the processing

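Over the 10 members and 4 comparisons, settings other than leaving out an array gave 424 values on the same side of 0 and of the threshold, 7 that lost a call, 8 that gained one and 9 that changed sign. Leaving out 1 array gave 302, 15, 1 and 12. With no filter on dim probes, 3 members were called in EC-SP minus EC-MP in place of 6, and leaving out 1 array gave 3 to 4. Values that changed sign were small or came from another probe. With the other probe, Nrp2 was -0.48 in EC-SP minus EC-MP and -0.17 in CD157+CD200+ minus CD157-CD200+, and Vegfa was -0.18 in EC-SP. With the array median, Flt1 and Tie1 were -0.041 and -0.017 in CD157-CD200+ minus CD157-CD200-, and Vegfc and Cdh5 were 0.019 and 0.015 in CD157+CD200+ minus CD157-CD200+. With quantile normalization, Tie1 was -0.013 in CD157+CD200+ minus CD157-CD200- and -0.047 in CD157+CD200+ minus CD157-CD200+, and Cdh5 was -0.14 in EC-SP. Under normexp, Tie1 and Cdh5 were -0.013 and 0.012 in CD157+CD200+ minus CD157-CD200+. With the series table, Tie1 was -0.016 there and Cdh5 -0.061 in EC-SP. The cause of these changes was not tested.

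Leaving out 1 array moved the differences of Tek from -0.0058 to 0.29 and of Tie1 from -0.10 to 0.24 in CD157+CD200+ minus CD157-CD200-. In CD157-CD200+ minus CD157-CD200- the ranges were -0.043 to 0.13 for Flt1, -0.12 to 0.25 for Tie1 and -0.28 to 0.015 for Cdh5. In CD157+CD200+ minus CD157-CD200+ they were -0.10 to 0.067 for Vegfc, -0.14 to 0.16 for Tie1 and -0.18 to 0.13 for Cdh5, and in EC-SP minus EC-MP -0.046 to 0.22 for Cdh5. None of these values was called in any fit.

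The replicate block, which is also the slide and scan block, gave 6, 7, 8, 0 and 8 called members in EC-SP minus EC-MP, CD157+CD200+ and CD157-CD200+ minus CD157-CD200-, CD157+CD200+ minus CD157-CD200+ and the F test. Of its changed calls, those of members stand beside their values, and it changed no other member's call. Over all features the block called 5255, 6938, 5282, 727 and 6350 in the same order, against 3968, 3601, 2807, 248 and 3305 without it. Without the filter on dim probes EC-SP minus EC-MP had 2279 calls, against 3968. In CD157+CD200+ minus CD157-CD200+, a filter on every array left 160 calls, and leaving out 1 array 104 to 261. With the series table the median difference of all features in EC-SP minus EC-MP was -0.17, and 39.8% of its calls were higher, against 55.0%. Precision is limited by 3 arrays per group, and dim probes such as Pgf in CD157-CD200- by their signal over background.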

Other observations

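Genes whose pattern was most like a member's were taken by Pearson r over the 15 arrays, after the mean of each sort was removed, among 13588 symbols tested in both fits. The arrays share groups and slides, so r is a description with no test. Flt4 was closest to Zbtb39, Pgghg and Nqo2 (r of 0.99, 0.99 and 0.99), and Vegfc to Dusp26, Syt11 and Efhd1 (0.98, 0.98 and 0.97). Angpt2 was closest to Gatm, Cd36 and Xpc (0.97 each), of which Cd36 is a fatty acid and thrombospondin receptor. Pgf was closest to Il17rd, Nrg1 and Jag1 (0.94, 0.93 and 0.93), of which Jag1 is a Notch ligand and Nrg1 a ligand of ErbB receptors. Kdr was closest to Mt1, a metallothionein, Cnksr3 and Cdk5r1 (0.97, 0.97 and 0.96). Nrp2, by probe A_65_P15245 alone, was closest to Kif22, B4galt5 and Ets2 (0.95, 0.95 and 0.93). The other Nrp2 probe had the opposite sign in EC-SP minus EC-MP. The genes that did not pass the F test in the subsets had highest values of 0.94 for Tek with Unc119, 0.92 for Flt1 with Cpne1 and 0.91 for Tie1 with Dnajc18.

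Among the members, Flt4 ran with Angpt2 (r of 0.95), Kdr (0.90) and Nrp1 (0.83) and against Vegfc (-0.94) and Pgf (-0.90) over the same arrays. Tek stood near 0 against Flt4 (-0.01) and Angpt2 (-0.09), and Tie1 reached no more than 0.45 with any member, which was Flt1.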
